A study of Mus musculus with 10 samples.

Results

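Among single-cell libraries of sorted alveolar epithelium from the mouse lung, a small set of barcodes carried the transcripts of connective tissue cells. These mesenchymal barcodes were chosen by a rule on measured counts. A barcode had at least 1000 detected genes, at most 50000 unique molecular identifiers (UMIs, each standing for 1 captured RNA molecule) and at most 15% mitochondrial UMIs. It had no UMI of Ptprc, the pan-leukocyte gene, or Cdh5, the endothelial cadherin, and at least 1 UMI of at least 3 of the 5 genes Col1a1, Col1a2, Col3a1, Dcn and Mgp. The rule found 81 of the 32698 barcodes that passed the quality filters, out of 42012 barcodes in all, which is 0.248% (exact 95% interval 0.197% to 0.308%, counting error only). Of these 81 barcodes, 22 had 3 of the 5 genes, 29 had 4 and 30 had all 5.

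Cells came from the distal lung of adult Sftpc-CreERT2; R26R-Confetti or Sftpc-CreERT2; Red2Kras mice, all given 3 doses of 0.2 mg tamoxifen per g body weight. The Sftpc promoter drives the inducible Cre in alveolar type 2 (AT2) cells, the surfactant-secreting progenitors of the alveolus, so mesenchymal cells are not a target of the labelling. In Confetti lungs both RFP+ and YFP+ cells are wildtype, whereas in Red2Kras lungs RFP+ cells are mutant and YFP+ cells are their wildtype neighbours. Every library was sorted for EpCAM+ cells of 1 colour from at least 2 pooled lungs. Confetti RFP and Confetti YFP have 1 library each, which the labels give no time point and the methods place at 2 weeks. Red2Kras RFP and Red2Kras YFP have 2 libraries each at 4 days and at 2 weeks after induction, which makes 10 libraries in 6 groups.

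Lung mesenchyme consists of several cell kinds. Alveolar fibroblasts lie against AT2 cells and supply growth factors and elastin, adventitial fibroblasts surround airways and vessels and lay down collagen, smooth muscle and pericytes contract around airways and vessels, and mesothelium covers the lung surface. Of the genes in the rule, Col1a1, Col1a2 and Col3a1 encode chains of fibrillar collagen, Dcn encodes the proteoglycan decorin, which binds collagen fibrils, and Mgp encodes matrix Gla protein, an inhibitor of calcification. In GRCm38 (GENCODE M21) these genes lie at chr11:94936224-94953042 (Col1a1), chr6:4504814-4541544 (Col1a2), chr1:45311538-45349706 (Col3a1), chr10:97479609-97518143 (Dcn) and chr6:136872435-136875823 (Mgp). The study itself named Col1a1, beside other markers that it did not list, for the mesenchymal clusters it discarded. Which barcodes were discarded there is not known here.

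The libraries held 10742481 to 79927159 UMIs and 1736 to 4445 filtered barcodes. The replicate 2 libraries stood apart from the others. All 4 of them held fewer mesenchymal barcodes than replicate 1 of the same group, and their Cdh5-positive share was 0.129% to 0.230% of filtered barcodes against up to 4.44% elsewhere. They also were almost free of Xist, the female-specific transcript, with 0.0405% to 0.344% female barcodes among those with a sex-informative UMI, whereas replicate 1 libraries were mixed and Confetti libraries were female. The share comparisons are therefore given with and without the replicate 2 libraries, which hold 5 of the 81 members. The median mesenchymal barcode had 3489 UMIs (range 1848 to 38761) and 1550 genes, against a median of 5626 UMIs in the other filtered barcodes. Barcode sequences of 2 of the 81 members (2.47%) also occurred in another library, against 1.14% of all barcodes, and neither partner held a UMI of the 5 genes.

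Mesenchymal barcodes were found in 8 of the 10 libraries, always at under 1% of filtered barcodes. Confetti RFP held 10 of 3980 (0.251%, exact 95% interval 0.121% to 0.462%) and Confetti YFP 18 of 4177 (0.431%, 0.256% to 0.680%). At 4 days, Red2Kras RFP replicate 1 held 13 of 3838 (0.339%, 0.180% to 0.579%) and YFP replicate 1 held 14 of 1913 (0.732%, 0.401% to 1.22%). None was found in 4 days RFP replicate 2 (0 of 1736 barcodes, which allows a share of up to 0.173% as 3 counts of the total, exact upper limit 0.212%) or 4 days YFP replicate 2 (0 of 3090, up to 0.0971%, exact upper limit 0.119%). At 2 weeks, RFP replicate 1 held 12 of 4245 (0.283%, 0.146% to 0.493%), RFP replicate 2 held 4 of 3528 (0.113%, 0.0309% to 0.290%), YFP replicate 1 held 9 of 4445 (0.202%, 0.0926% to 0.384%) and YFP replicate 2 held 1 of 1746 (0.0573%, 0.00145% to 0.319%). The 4 days YFP replicate 1 library had the highest share, with an interval that overlapped those of both Confetti libraries and of both RFP replicate 1 libraries but not that of 2 weeks YFP replicate 1, and the 4 replicate 2 libraries had the lowest shares. Together the 4 replicate 1 libraries held 48 of 14441 (0.332%) and the 4 replicate 2 libraries 5 of 10100 (0.0495%).

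**Figure D1:**
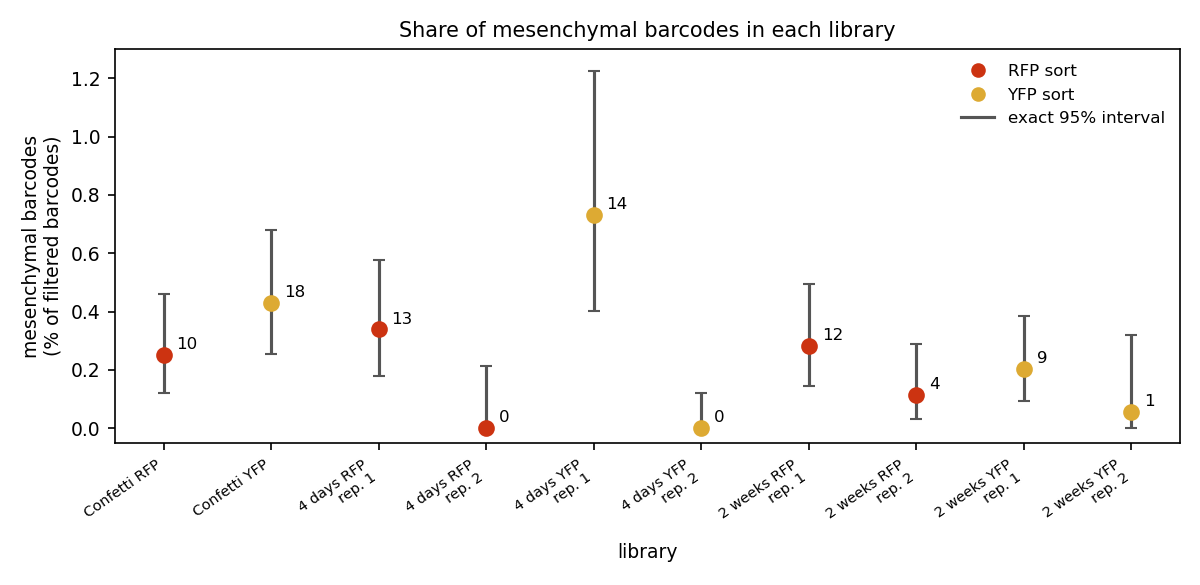
Share of mesenchymal barcodes among filtered barcodes (y axis, percent) in each of the 10 libraries (x axis), with exact 95% intervals for counting error and the number of barcodes beside each point. Replicate 2 libraries lie between 0% and 0.113%, below replicate 1 of their own group in all 4 groups.

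Over the 8 Red2Kras libraries the shares overlapped between the colours of the sort and between the time points. The 4 Red2Kras RFP libraries averaged 0.184% ± 0.155 (SD, n = 4) and the 4 YFP libraries 0.248% ± 0.334 (SD, n = 4), a difference of −0.0642 percentage points (two-sided exact permutation test, p = 0.857, Benjamini-Hochberg adjusted over both differences p = 0.857, smallest p this design allows 0.0286). The 4 libraries at 2 weeks averaged 0.164% ± 0.0992 (SD, n = 4) and the 4 at 4 days 0.268% ± 0.348 (SD, n = 4), a difference of −0.104 percentage points (exact permutation p = 0.714, adjusted p = 0.857). Leaving out 4 days YFP replicate 1 turned both differences, to 0.0971 and 0.0510 percentage points, with neither past the threshold. In the replicate 1 libraries alone the differences were −0.156 (RFP 0.311%, YFP 0.467%) and −0.293 (2 weeks 0.243%, 4 days 0.535%), with exact permutation p = 1 and p = 0.333, the latter the smallest that 2 libraries against 2 allow. In these 4 libraries the time points did not overlap, with both 4 days libraries above both 2 weeks libraries. Sex-specific transcripts, given below, also differed between them. RFP and YFP libraries of 1 replicate number may come from the same pooled lungs, which the labels do not state. If so, each time point holds fewer independent units than libraries, and the permutation p-values for time count too many.

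The mesenchymal share was set beside those of endothelial and immune barcodes. Across the 10 libraries the mesenchymal share rose and fell with the share of Cdh5-positive barcodes (Spearman's rho = 0.90, Pearson's r = 0.95, n = 10 libraries) and not with that of Ptprc-positive barcodes (rho = −0.50, r = −0.42), which ranged from 0.964% to 34.8%. Without the replicate 2 libraries the values were rho = 0.83 and r = 0.96 for Cdh5 and rho = 0.09 and r = 0.46 for Ptprc (n = 6 libraries), so the sign for Ptprc rests on replicate 2. These are descriptions over points that share their sort and their replicate number, and the other filters of the rule act on the same barcodes.

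The 5 rule genes were seen in 40 to 79 of the 81 barcodes. Mgp had a UMI in 79, with a median of 43 UMIs and a highest value of 457, and in 0.408% of the other filtered barcodes. Col3a1 had a UMI in 75 (median 5 UMIs, highest 44), Col1a2 in 71 (median 3, highest 27) and Col1a1 in 67 (median 2, highest 17). Dcn was divided among the members, with a UMI in 40 of 81 and a highest value of 119 UMIs. Barcodes with 3 of the genes, just inside the rule, had a median of 16.5 UMIs of the 5 genes together, against 4.5 in the 10 barcodes just outside it, with 2 genes and no UMI of Ptprc or Cdh5. The 151 barcodes with 1 gene and none of Ptprc or Cdh5 had a median of 1 such UMI and 13.4% AT2 transcripts, and 93 of them came from the 2 weeks RFP libraries. A further 16 barcodes met the gene condition but had a UMI of Cdh5 (15 barcodes) or Ptprc (2 barcodes), 1 of them of both.

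Clustered on all genes except mitochondrial ones, the mesenchymal barcodes fell into 4 clusters. A fibroblast-like cluster held 36, a smooth muscle-like cluster 16 and a mesothelial-like cluster 16, while 13 formed a cluster led by surfactant genes that is called Sftpc-led here and given no cell type name. The clusters were made from these genes, so the differences between clusters below are descriptions without a test. The smooth muscle-like and mesothelial-like clusters held the same number of barcodes at resolutions 0.4, 0.8 and 1.2, and at 1.2 the fibroblast-like cluster divided into 21 and 15 barcodes, the smaller led by Cxcl1, Tnfaip6 and Cebpd.

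**Figure D2:**
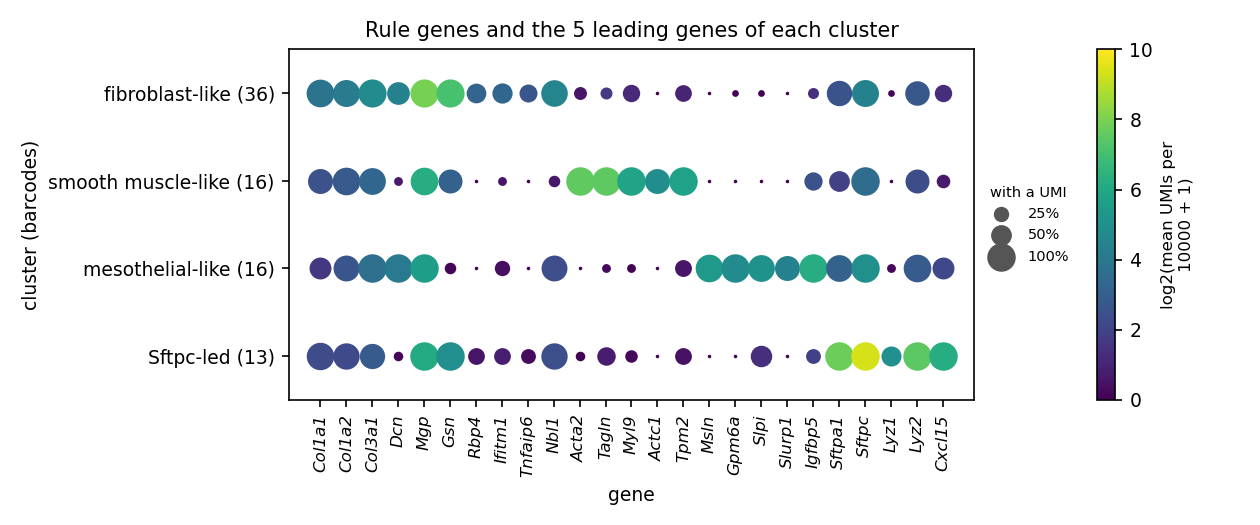
Levels of the 5 rule genes and of the 5 leading genes of each cluster (x axis) in the 4 clusters (y axis, number of barcodes in brackets). Colour gives the log2 of the mean UMIs per 10000 plus 1, and dot area the percentage of barcodes with a UMI. Acta2 and Tagln mark the smooth muscle-like row, Msln and Gpm6a the mesothelial-like row, and Sftpc the Sftpc-led row, while Mgp and Col3a1 appear in all 4.

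The fibroblast-like cluster was led by Gsn, which encodes the actin-severing protein gelsolin, with a mean of 139 UMIs per 10000 against 11.8 in the other mesenchymal barcodes and a UMI in 97.2% of the cluster. Rbp4 (plasma retinol carrier), Ifitm1, Tnfaip6 (a hyaluronan-binding protein) and Nbl1 (a secreted BMP antagonist) followed. This cluster had the highest summed Mgp level, at 24005 CPM (counts scaled to a fixed total of UMIs), and Dcn in 22 of 36 barcodes. Both kinds of fibroblast marker were present, with 10 of 16 alveolar and 10 of 17 adventitial markers detected in at least 25% of the barcodes. Alveolar marker UMIs outnumbered adventitial ones in 16 barcodes, adventitial outnumbered alveolar in 18, and 2 had equal numbers, with medians of 13 and 15 UMIs. Among alveolar markers, Inmt had 1987 CPM in this cluster, Tcf21 (a transcription factor of lung fibroblasts) 610 CPM and Pdgfra (a platelet-derived growth factor receptor) 501 CPM. Among adventitial markers, Clec3b had 1502 CPM, Mfap5 1126 CPM and Dpt (dermatopontin) 422 CPM. Adventitial markers were not limited to this cluster, as mesothelial-like barcodes had a median of 16.5 such UMIs. In the mesothelial-like cluster Clec3b was at 1971 CPM, whereas Mfap5 was at 60.8 CPM and Dpt at 0. The cluster was therefore not divided into alveolar and adventitial cells.

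The smooth muscle-like cluster carried the contractile genes, with 10 of 11 smooth muscle markers detected in at least 25% of its barcodes. Acta2 (smooth muscle actin) had a mean of 200.2 UMIs per 10000 against 0.278 in the other mesenchymal barcodes, Tagln (transgelin) 193 against 1.40, Myl9 (myosin light chain) 58.9 against 0.699 and Tpm2 (tropomyosin) 57.2 against 0.777. Actc1 (cardiac actin), Myh11 (smooth muscle myosin), Cnn1 (calponin) and Actg2 (enteric actin) had no UMI in any barcode of the other clusters and were detected in 75%, 93.8%, 81.2% and 87.5% of this cluster. At least 3 smooth muscle markers were present in 16 of its 16 barcodes, against 2 of 36 fibroblast-like, 1 of 13 Sftpc-led and 0 of 16 mesothelial-like barcodes. Pericyte markers also occurred, with 8 of 14 detected in at least 25% of the barcodes and at least 3 of them in 9 of 16. Of 10 markers listed for myofibroblasts of the alveolar duct, 4 were detected in at least 25% of the barcodes. Among these 10, Mustn1 had 2532 CPM here and 102 CPM in the fibroblast-like cluster, and Aspn 673 and 93.9 CPM. Itga8, listed as an alveolar fibroblast marker, had 1138 CPM here and 164 CPM in the fibroblast-like cluster. Of the other filtered barcodes 37 had at least 3 smooth muscle markers without meeting the rule, 12 of them without Ptprc or Cdh5.

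Contractile genes are controlled by serum response factor, which binds the CArG box, and the sequence before the start of 2 leading genes is shown because they carry the smooth muscle-like profile. A CArG box was searched as CC, then 6 bases that are each A or T, then GG, a form that reads alike on both strands, in the 250 bases before each RefSeq start (GRCm38.p6). It occurred in 1 of the 8 smooth muscle markers in the table, Actc1, against 1.62% of 27025 genes, and in none of 14 alveolar fibroblast, 10 adventitial fibroblast or 7 mesothelial markers. The Actc1 stretch is chr2:114052876-114053125 on the minus strand and the Acta2 stretch is chr19:34255374-34255623 on the minus strand, both printed 5′ to 3′ on that strand, with the box in capitals, which begins 47 bases before the Actc1 start. No match in Acta2 says only that these letters are not in this window, and not that the gene lacks a CArG box. Forms 1 base away were not searched or marked. Both stretches hold such a form, ccctatatgg, and the Acta2 stretch also holds ccttgtttgg.
Actc1: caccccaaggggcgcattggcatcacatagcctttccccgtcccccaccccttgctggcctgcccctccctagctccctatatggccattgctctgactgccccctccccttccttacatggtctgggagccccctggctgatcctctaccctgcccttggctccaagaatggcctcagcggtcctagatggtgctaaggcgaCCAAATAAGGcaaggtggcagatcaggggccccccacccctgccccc
Acta2: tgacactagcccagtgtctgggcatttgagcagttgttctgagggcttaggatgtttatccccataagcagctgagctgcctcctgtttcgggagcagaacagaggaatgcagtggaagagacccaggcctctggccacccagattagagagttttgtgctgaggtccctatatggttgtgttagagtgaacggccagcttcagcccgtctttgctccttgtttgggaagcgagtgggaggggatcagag

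The mesothelial-like cluster had the deepest barcodes, with a median of 8254 UMIs and 2999 genes. Msln (mesothelin) had a mean of 41.5 UMIs per 10000 and Slurp1 19.9, both with no UMI in the other mesenchymal barcodes. Gpm6a followed with 27.1 against 0.0375, Slpi (secretory leukocyte protease inhibitor) with 33.5 against 0.352 and Igfbp5 with 77.0 against 2.76. All 11 mesothelial markers were detected in at least 25% of its barcodes, and 16 of 16 barcodes had at least 3, against 0 in each other cluster and 0 among all remaining filtered barcodes. Dcn had a UMI in 16 of 16 barcodes here, compared with 1 of 16 smooth muscle-like and 1 of 13 Sftpc-led barcodes. Complement genes were high, with C3 at 9118 CPM against 954 CPM in the fibroblast-like cluster and 0 in the smooth muscle-like cluster, and C4b at 4222 CPM against 256 CPM in the smooth muscle-like cluster. Keratins usually named as epithelial were also present, at 687 CPM for Krt19 and 797 CPM for Krt7, with Epcam at 0 in all 16 barcodes. Kdr, the VEGF receptor used as an endothelial marker, had 505 CPM, while Ramp2 and Calcrl were at 6.08 CPM each and the remaining 8 endothelial markers at 0 (Cdh5 by the rule).

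The 13 Sftpc-led barcodes carried alveolar epithelial and fibroblast transcripts together. All 12 AT2 markers and 10 of 11 pan-epithelial markers were detected in at least 25% of them, together with 12 of 16 alveolar fibroblast markers. Sftpc (surfactant protein C) averaged 684 UMIs per 10000 against 20.4 in the other mesenchymal barcodes, Sftpa1 224 against 5.29 and Lyz2 184 against 5.53. AT2 transcripts made up a median of 11.9% of their UMIs (range 3.16% to 16.2%), against a median of 19.4% in the 30171 filtered barcodes that are neither members nor positive for Ptprc or Cdh5. Epcam had a UMI in 8 of these 13 and in 0 of the remaining 68 (0% with an upper exact 95% bound of 5.28%). That bound is on barcodes with a UMI and does not limit the share of cells that express Epcam. Mgp had 6441 CPM in this cluster, Inmt 1211 CPM and Pdgfra 483 CPM, while Dcn was at 29.5 CPM. Scrublet, a doublet caller, placed none of the 81 members among the 940 barcodes (2.87%) with the highest scores. It scores barcodes against random simulated pairs, few of which hold a member at 0.248% of barcodes, so this cannot decide whether these are doublets. The median of 6331 UMIs in this cluster compared with 2702 in the fibroblast-like cluster, and whether these barcodes each hold more than 1 cell was not tested.

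Outside this cluster the members carried little surfactant RNA, close to the level in Cdh5-positive barcodes. AT2 transcripts made up a median of 0.178% of UMIs in the 68 barcodes, and 0.198% in 340 Cdh5-positive barcodes that did not meet the gene condition, where the medians of total UMIs were 3274 and 3785. Sftpc had a UMI in 94.1% of the 68 barcodes and in 93.8% of those Cdh5-positive barcodes. Whether these UMIs are background or expression was not tested. The Cdh5-positive barcodes were themselves mixed, as 56 of the 340 had over 2% AT2 transcripts and 42 had a UMI of Epcam. The AT2 share moved with the library in both sets of barcodes. It was 0% in the single member of 2 weeks YFP replicate 2 and a median of 0.0230% in the 4 members of 2 weeks RFP replicate 2, where 4 and 7 Cdh5-positive barcodes had medians of 0% and 0.0742%, and in Confetti YFP it was 0.294% in 14 such members and 0.265% in 90 Cdh5-positive barcodes. The highest values outside the Sftpc-led cluster were 4.57% in a mesothelial-like and 3.02% in a fibroblast-like barcode. Of the genes used to discard other cells, Pecam1 had a UMI in 3 of 81 members and Foxj1, the ciliated cell regulator, in 0.

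**Figure D3:**
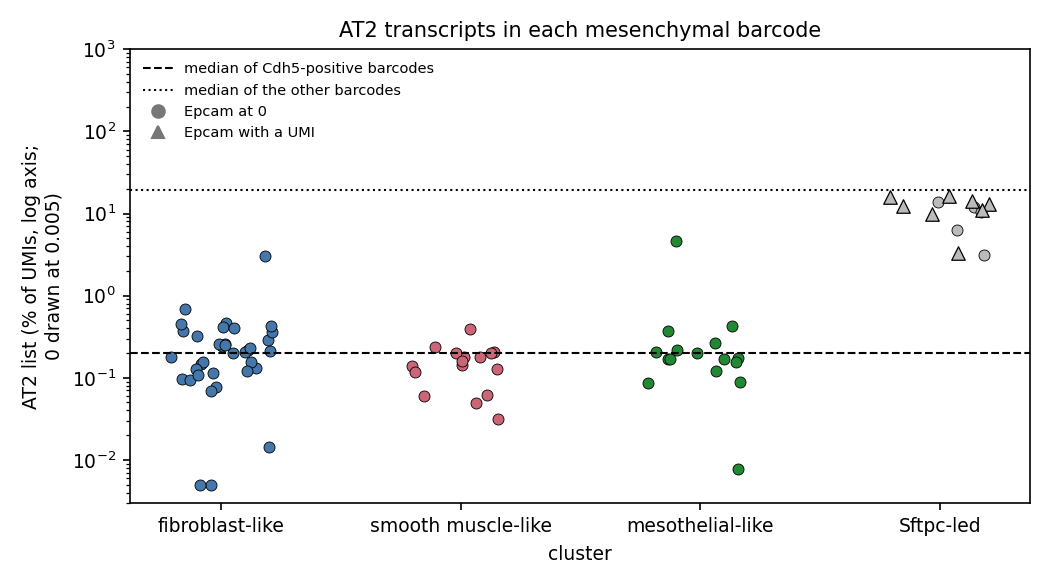
AT2 transcripts as a percentage of UMIs (y axis, log axis, 2 barcodes at 0 drawn at 0.005) in each mesenchymal barcode, by cluster (x axis). Triangles have a UMI of Epcam. The dashed line is the median of Cdh5-positive barcodes (0.198%) and the dotted line that of filtered barcodes that are neither members nor Ptprc- or Cdh5-positive (19.4%), and the Sftpc-led barcodes lie at 3.16% to 16.2%, with 1 other barcode above 3.16%.

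Sex-specific transcripts, which the rule did not use, were set beside those of the other barcodes of each library, without a test. In the replicate 1 libraries 23 members had Xist alone, 17 had Y-linked transcripts alone and 0 had both. In 2 weeks RFP replicate 1, 36.4% of the informative members and 35.2% of the other informative barcodes were female, and in 4 days RFP replicate 1 the values were 80% and 82.2%. The 4 days YFP replicate 1 library gave 75% and 83.5%, and 2 weeks YFP replicate 1 gave 28.6% and 26.5%. In Confetti, 6 of 10 RFP and 17 of 18 YFP members were informative and these were female, and none of the informative members of the replicate 2 libraries was female.

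The clusters were spread over the libraries. Confetti held 15 fibroblast-like, 3 smooth muscle-like, 5 mesothelial-like and 5 Sftpc-led barcodes. At 4 days the numbers were 13, 5, 3 and 6, and at 2 weeks they were 8, 8, 8 and 2. The RFP libraries, Confetti included, held 13 fibroblast-like, 8 smooth muscle-like, 10 mesothelial-like and 8 Sftpc-led barcodes, and the YFP libraries 23, 8, 6 and 5. Each of the 3 named clusters had barcodes in both colours and in Confetti, 4 days and 2 weeks, and with 1 to 18 barcodes in a library that had any, these proportions were not tested.

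**Figure D4:**
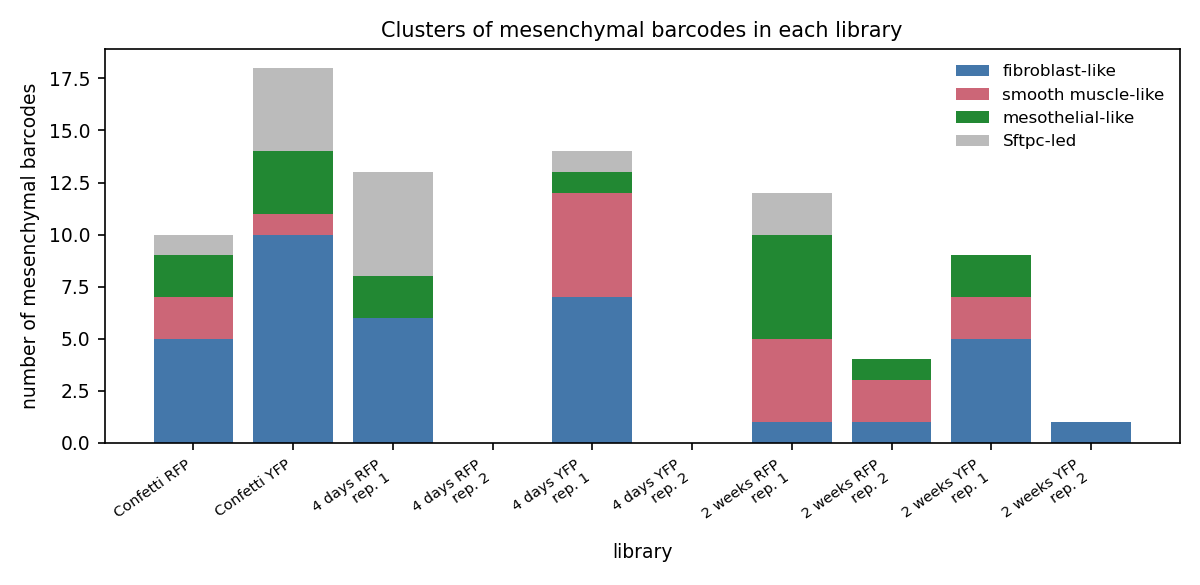
Number of mesenchymal barcodes (y axis) in each library (x axis), stacked by cluster. Fibroblast-like barcodes form the largest part in Confetti YFP (10 of 18), mesothelial-like barcodes in 2 weeks RFP replicate 1 (5 of 12), and 2 libraries have none.

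To describe the profile, UMIs of the members were summed in each library and divided by their total, as CPM. Means below are over the 5 libraries with at least 10 members, and the log2 ratio compares them with all other filtered barcodes of the same libraries after adding 1 CPM. Since the rule chose these cells by their matrix genes, the ratios describe them and are not tested. The median log2 ratio over 21068 genes was −0.02, and 17.0% of these genes were over 2-fold higher in the members and 13.1% over 2-fold lower, the background for the counts by list below. Mgp had 11397 ± 4376 CPM (SD, n = 5 libraries) against 5.90 CPM in the other barcodes, and was followed in the size of the ratio by Mfap4, Dcn, Rarres2 and Acta2. Rarres2, the chemoattractant chemerin, had a UMI in 73 of 81 members at 2365 ± 465 CPM against 2.10 CPM. Also among the 20 genes with the largest ratio, present in at least 20% of members, were Gpm6a, Tagln, Eln, C4b, Serping1, Igfbp5, Ogn, Mfap5, Inmt, Fbln1, Ptgis and Sulf1, along with Col3a1, Col1a2 and Col1a1 from the rule.

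Extracellular matrix genes lay above the other barcodes as groups. Counts here leave out the genes of the rule. Of 16 collagens, 14 were over 2-fold higher (median log2 ratio 2.90), including Col6a1 at 447 ± 80.2 CPM against 65.7. Col4a1, a basement membrane chain, had 195 ± 166 CPM against 113 and was above the other barcodes in 2 of 5 libraries. Of 16 genes for collagen maturation 11 were over 2-fold higher (median 2.56), with Serpinh1 (collagen chaperone) at 651 ± 110.0 CPM against 81.8 and Pcolce (procollagen C-proteinase enhancer) at 544 ± 135 against 12.6. Elastic fibre genes had a median log2 ratio of 5.53, with 14 of 15 over 2-fold higher. Eln (elastin) was at 1229 ± 785 CPM against 1.12, Mfap4 at 1692 ± 846 against 1.02 and Ltbp4, which binds latent TGF-β, at 997 ± 396 against 3.33. Of 16 measured proteoglycan and matricellular genes 16 were over 2-fold higher (median 5.82), with Bgn (biglycan) at 2233 ± 643 CPM against 10.8, Ogn (osteoglycin) at 1091 ± 322 against 1.75 and Gpc3 at 1598 ± 905 against 13.3.

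Signals that mesenchyme is known to send to alveolar epithelium were present in part. Of 25 niche ligands, 19 were over 2-fold higher in the members (median log2 ratio 3.60), 11 were seen in at least 20% of them, and 2 had no UMI. Igf1 had 159 ± 92.9 CPM against 0.979 and lay mainly in the fibroblast-like cluster (344 CPM). Rspo1 (a Wnt agonist) had 153 ± 73.9 CPM against 0.116 and Tgfb2 147 ± 62.2 against 1.14, both with their highest level in the mesothelial-like cluster (535 and 432 CPM). Bmp3 had 143 ± 69.5 CPM against 26.4. Of 20 transcription factors of lung mesenchyme 19 were over 2-fold higher (median 3.81), among them Tcf21 at 276 ± 140 CPM, Nr2f2 at 268 ± 139 and Klf4 at 298 ± 173. Of 22 growth factor and niche receptors 16 were over 2-fold higher (median 1.78), with Pdgfra at 319 ± 144 CPM against 0.482.

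Complement and retinoid genes had a median log2 ratio of 5.48, with 10 of 14 over 2-fold higher. Serping1 (C1 inhibitor) was at 1270 ± 367 CPM against 1.27. Of 16 inflammatory fibroblast genes 12 were over 2-fold higher (median 2.45), with C3 at 2779 ± 2161 CPM and Cxcl14 at 362 ± 207. The exceptions included Lcn2, which lay lower in the members (402 ± 274 CPM against 2728). The list of activated or fibrotic fibroblasts had a median of 1.38, and 9 of its 15 genes were over 2-fold higher. Its highest values were those of Tagln and Acta2, from the smooth muscle-like cluster, while Cthrc1, a marker of fibrotic fibroblasts, had a UMI in 1 member, Grem1, Adam12 and Lrrc15 had none, and 3 of the 15 genes were seen in at least 20% of members. Immediate early and heat shock genes, which rise during tissue dissociation, had a median of 0.79, with Fos at 2569 ± 881 CPM against 705.

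Most lists of other cell types lay lower, with the alveolar type 1 list as an exception. Leaving out Ptprc and Cdh5, which the rule set to 0, medians were −2.32 for 12 AT2 markers, all over 2-fold lower, −1.74 for 11 pan-epithelial, −2.60 for 6 ciliated, −3.36 for 6 airway secretory, −3.58 for 10 immune and −2.07 for 10 endothelial markers. The summed AT2 level was 34796 CPM in all members and 4841 CPM without the Sftpc-led barcodes, against 173013 in the other barcodes, and without them the medians were −5.29 for AT2 and −3.25 for pan-epithelial markers. Of the rest, 2 of the 10 immune and 2 of the 6 ciliated markers had any UMI in a member. The 8 alveolar type 1 markers had a median of 1.37, with 5 over 2-fold higher and 3 over 2-fold lower, but this rests on few barcodes, since 0 of the 8 were seen in at least 20% of members. Of the 5, Rtkn2 had a UMI in 1 member, Akap5 and Igfbp2 in 3 each, and Hopx was higher in 2 of 5 libraries. Spock2 (a proteoglycan) was at 113 ± 59.4 CPM against 0.307, above the other barcodes in 5 of 5 libraries and with its highest level in the mesothelial-like cluster, whereas Ager (the receptor that marks type 1 cells) was at 297 ± 298 against 756. All Ager UMIs of the fibroblast-like cluster (446 CPM) came from 1 barcode. Of 9 markers of the transitional states of mutant AT2 cells 8 were over 2-fold lower (median −4.61), and Areg, with a UMI in 6 members, was seen in the Sftpc-led cluster alone. Schwann cell markers were at a median of −0.01, with 3 of 6 at 0 in all members, including Sox10. Of 12 cell cycle genes 0 were over 2-fold higher, and Mki67 and Top2a each had a UMI in 1 member.

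Members were then compared between conditions on counts summed per library, since cells of 1 library are not replicates. With at least 10 members a library, 2 weeks had 1 library, so the fits took the 6 libraries with at least 5 members, which are Confetti and replicate 1 alone and hold 9 to 18 members each. Summed counts cannot tell fewer cells of a kind from less RNA per cell. Between 2 weeks and 4 days, 0 of 1357 genes passed an adjusted p of 0.05 in edgeR's quasi-likelihood test (background 0%, smallest adjusted p = 0.691), DESeq2 called 0, and 81 had an unadjusted p under 0.05 (5.97%). Between 2 weeks and Confetti the numbers were 0 of 1357 (0%, smallest adjusted p = 0.829), 0 by DESeq2 and 75 unadjusted (5.53%). Between RFP and YFP in Red2Kras, 0 of 1254 passed (0%, smallest adjusted p = 0.864), DESeq2 called 0 and 46 had an unadjusted p under 0.05 (3.67%). With 2 libraries on each side, 36.3%, 35.7% and 32.1% of the genes did not overlap between the groups. The first and second comparison share the 2 weeks libraries. If RFP and YFP libraries of a replicate share lungs, each side of these 2 comparisons rests on 1 pool of lungs. Sex also differed along with condition here, and its part cannot be told apart. Of the other barcodes with a sex-informative UMI, 100% were female in both Confetti libraries. The values were 82.2% and 83.5% in the 4 days RFP and YFP libraries, and 35.2% and 26.5% at 2 weeks.

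The 5 genes with the smallest p between 2 weeks and 4 days were C3, Hpgd, AU021092, Podn and Sfrp2, none of which passed. Without a filter on low counts edgeR called C3 (adjusted p = 0.0177) and Hpgd (adjusted p = 0.000134) among 7 genes, and against Confetti C3 (adjusted p = 0.00471) and Podn (adjusted p = 0.0261) among 7. That setting fitted 12516 genes, most of them with counts too low for the filter. Its calls depend on the setting, as the filtered fit and DESeq2 made none. C3, the central complement component, was at 6806 and 5252 CPM (library totals scaled by TMM) in the 2 weeks RFP and YFP libraries, at 2505 and 1372 at 4 days and at 2030 and 1468 in Confetti. The 2 weeks libraries were thus above all 4 others (log2 fold change against 4 days 1.71 ± 0.29 (SE), edgeR adjusted p = 0.691, and against Confetti 1.81 ± 0.29, adjusted p = 0.829). Podn (podocan) was at 691 and 634 CPM at 2 weeks, at 216 and 99.0 at 4 days and at 152 and 93.7 in Confetti, and Sfrp2 (a secreted Wnt modulator) at 721 and 400.2, then 130 and 127, then 182 and 172. Hpgd rested on 51 UMIs at 2 weeks and 2 at 4 days. AU021092 was at 579 and 267 CPM at 2 weeks and 130 and 56.6 at 4 days, and at 364 and 266 in Confetti. Against Confetti, Mfap4 (a microfibril protein), Pcolce2 and Gm47283 joined C3 and Podn among the 5 smallest p. Mfap4 was at 609 and 700.3 CPM at 2 weeks and 2818 and 1828 in Confetti, with 1454 and 1768 at 4 days, and neither it nor the others passed (edgeR adjusted p = 0.829).

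**Figure D5:**
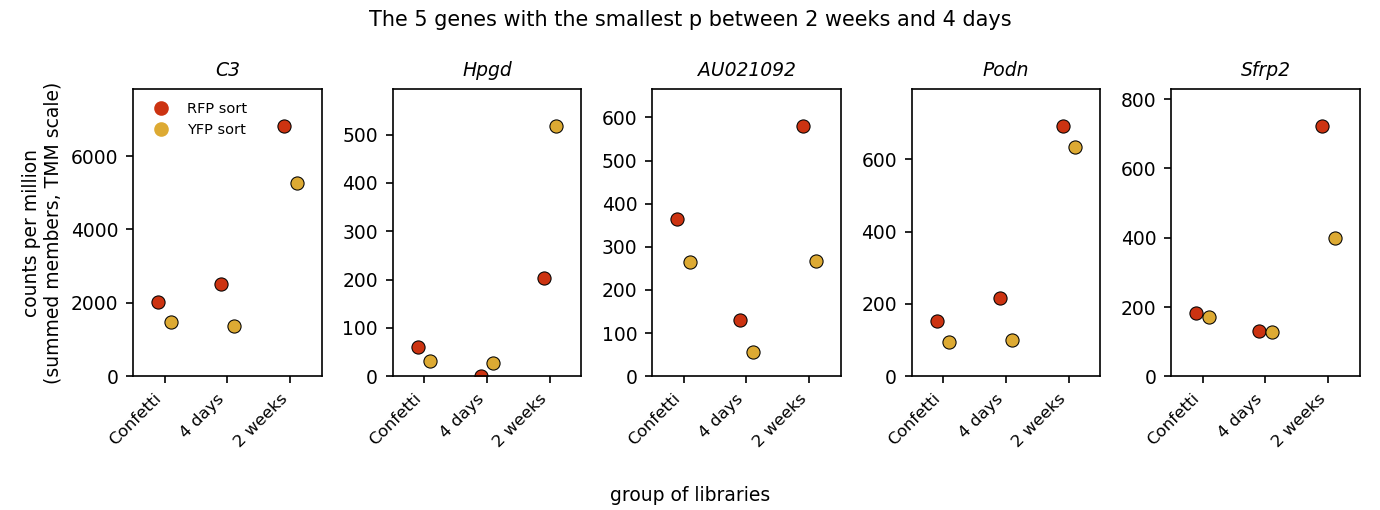
CPM on the TMM scale (y axis, starting at 0) of the 5 genes with the smallest p between 2 weeks and 4 days, in the summed members of 6 libraries (x axis, 1 RFP and 1 YFP point a group). C3 lies at 5252 and 6806 at 2 weeks and between 1372 and 2505 elsewhere, and no gene passed the adjusted threshold.

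Between 2 weeks and 4 days, mesothelial markers had fitted changes above 0 and alveolar fibroblast markers below 0, and no gene passed. Of 9 mesothelial markers tested, 9 had a fitted change above 0 (49.6% of all genes), with a median log2 fold change of 1.19 against −0.01 over all genes, 4 had an unadjusted p under 0.05 (5.97% of all genes) and 4 did not overlap between the groups, near the share over all genes (36.3%). Against Confetti it was 9 of 9 (48.8% of all genes) with a median of 1.07. Msln was at 1981 and 1834 CPM at 2 weeks, 1181 and 594 at 4 days and 1061 and 812 in Confetti (2 weeks against 4 days 1.19 ± 0.34 (SE), edgeR adjusted p = 0.731). Of 8 alveolar fibroblast markers 0 were above 0 against 4 days (median −1.15), among them Pdgfra, at 81.3 and 150.1 CPM at 2 weeks and 360 and 467 at 4 days, and Tcf21, at 81.3 and 117 against 202 and 368. Against Confetti 1 of the 8 was above 0 (Ces1d, 0.20) and the median was −1.13. Adventitial markers had a median of −1.12 over 8 genes, and smooth muscle markers 0.27. The kinds of cell that were summed are given beside these values, without a test. Mesothelial-like barcodes gave 7 of 21 members and 46.0% of the summed UMIs at 2 weeks, 3 of 27 and 18.8% at 4 days and 5 of 28 and 26.7% in Confetti, and fibroblast-like barcodes gave 16.7%, 36.9% and 39.7%. By library, the fibroblast-like part overlapped between times, at 6.00% (RFP) and 36.3% (YFP) at 2 weeks and 20.6% and 52.6% at 4 days. The mesothelial-like part was 41.8% (RFP) and 53.5% (YFP) at 2 weeks and 31.2% and 6.81% at 4 days. The part of this composition in the changes was not tested.

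Between RFP and YFP, 10 of 10 AT2 markers had a fitted change above 0 (48.4% of all genes), with a median log2 fold change of 2.56 and none past the adjusted threshold. Of these markers 9 did not overlap between the groups (32.1% of all genes) and 5 had an unadjusted p under 0.05 (3.67% of all genes). Without a filter on low counts edgeR called 33 genes, 8 of them AT2 markers (Chil1, Cxcl15, Lamp3, Napsa, Sftpa1, Sftpb, Sftpc and Slc34a2), with Sftpc at an adjusted p = 8.83e-12, and Lyz1, Slpi and Scd1 were also among them. These calls depend on that setting, which fitted 12007 genes, as the filtered fit and DESeq2 made none. Sftpc was at 44485 and 29519 CPM in the RFP members of 4 days and 2 weeks and at 16023 and 1000.5 in the YFP members (3.11 ± 1.12 (SE), edgeR adjusted p = 0.992). The 5 genes with the smallest p were Lyz1, Slpi, Scd1, Pam and Hmgb2. Lyz1, a lysozyme gene, was at 1785 and 1392 CPM in RFP and had 0 UMIs in YFP, and Slpi was at 230.3 and 366 in RFP and 1612 and 1918 in YFP. Scd1 (a fatty acid desaturase) was at 1569 and 670.4 in RFP and 255 and 133 in YFP. Sftpc-led barcodes gave 7 of 25 members and 39.1% of the summed UMIs in RFP and 1 of 23 and 8.65% in YFP, and their part in these values was not tested. Without the Sftpc-led barcodes the fit called 0 of 1044 genes, which cannot show their part, as the fit with them also called 0. Smooth muscle markers were all below 0 (0 of 8, median −1.72), where 4 days RFP replicate 1 had no smooth muscle-like barcode and Acta2 at 0.

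Removing 1 library changed these counts in some fits and left no call in the others. It leaves 1 library at that time point, which is then assumed to vary like the others, so these calls rest on a single library. Without 2 weeks RFP replicate 1, edgeR called 16 genes against 4 days, of which 13 were lower and were led by Sftpc, Lyz2 and Sftpa1, and 4 against Confetti (Sftpc, Lyz2, Sftpa1 and Cd74, all lower). That library held both Sftpc-led barcodes of the 2 weeks groups. Without 4 days YFP replicate 1, 2 genes were called, Acta2 and Tagln, and the 5 smooth muscle-like barcodes of the 4 days group all came from that library. These genes were named after their values were seen.

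Barcodes that failed the quality filters held a few more cells of this kind. Of 9314 failed barcodes, 23 met the rest of the rule (0.247%, exact 95% interval 0.157% to 0.370%), all of them with fewer than 1000 genes. The 2 Confetti libraries held 20 of these (0.584% of their failed barcodes), and the 8 Red2Kras libraries held 3 (0.0509%).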

How the data were processed

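Droplet-based single-cell RNA libraries were analysed from gene by barcode matrices. The deposited UMI counts were made by the authors with Cell Ranger (3.1.0 in the submitters' processing notes, 5.0.1 in the file headers) against GRCm38, with empty droplets removed and no other filter or normalization. The labels name v2 chemistry and the methods v3. The members and lists were chosen with earlier results of these data known. Quality limits follow the study. Barcodes were summed per library with no doublet removal. Members were clustered with Louvain (igraph 0.11.9, scanpy 1.11.5, resolution 0.8, 2000 variable genes, 15 components, 15 neighbours). Summed counts were tested with edgeR 4.0.16 (TMM, filterByExpr, colour or time as a covariate, 2 or 1 residual degrees of freedom) and DESeq2 1.42.0. A minimum of 10 members per library left too few libraries, so a minimum of 5 was used. On data simulated for 2 weeks against 4 days, edgeR recovered 95% of 200 genes changed 8-fold among 1357, with 10 false calls. The simulation gave all genes the same spread and all libraries the same mix of cells, which the real counts do not have. It therefore does not give the power of the real fits, where Hpgd had a log2 fold change of 4.51 and was not called. The 0 calls there do not exclude changes of this size. Pooled lungs make p-values a measure of the spread between libraries. RFP and YFP libraries of 1 replicate number may share lungs, so libraries of a condition may not be independent. Shares were compared by exact permutation. Named genes were the rule genes, the 20 largest ratios, up to 4 per list by level, the 5 leading genes of each cluster, the 5 smallest p per comparison and the genes of the sort and discard steps, with others added after their values were seen. Some genes of the lists are not reported here by name.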

Additional observations from a re-analysis of the deposited data

How the results depend on the processing

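The 81 barcodes give 0 to 18 per library, and tests on summed counts rest on 4 to 6 libraries. Over all libraries the share of 0.248% became 0.180% with at least 4 of the 5 genes and 0.0917% with all 5, and lay between 0.199% and 0.297% under the other alternatives, among them thinning to 2000 UMIs, Epcam at 0, no quality filter, Scrublet removal and, added after seeing the data, leaving out the Sftpc-led cluster. The differences between RFP and YFP and between 2 weeks and 4 days passed the threshold under none of these. Leaving out 1 library each gave −0.147 to 0.0971 percentage points and −0.193 to 0.0510, with the sign turned only without 4 days YFP replicate 1. With libraries paired by replicate number (replicate block) the same differences of −0.0642 and −0.104 had exact permutation p = 1 and p = 0.875, where 0.125 is the smallest possible. No filter on low counts gave 7 calls for 2 weeks against 4 days, 7 for 2 weeks against Confetti and 33 for RFP against YFP. Leaving out 1 library each gave 0 to 16 and 0 to 4 calls for the first and second, and the third could not be fitted. Members with at least 4 of the 5 genes gave 0 calls in all 3. A replicate block could not be fitted to the summed counts because the fitted Red2Kras libraries all carry replicate number 1, and RFP was compared with YFP within time points. Fits with at least 20 members, or with members low in alveolar epithelial RNA, were not run, as too few libraries remained.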
